A study of Mus musculus with 2 samples.

Results

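Proteasome genes were followed in single droplets from undamaged mouse liver and from liver regenerating after partial hepatectomy (PHx). The members were the 50 genes, of 27998 listed, whose symbols begin with Psma to Psmg followed by a digit, with no pseudogene among them. They comprised 7 genes of the core alpha ring, 7 of the constitutive beta ring, the 3 immunoproteasome subunits Psmb8, Psmb9 and Psmb10, 6 ATPases, 3 non-ATPase subunits of the base, 8 lid subunits, 3 base assembly factors, 5 activator genes, 4 core assembly factors and the inhibitor Psmf1. Psma8 and Psmb11, which are core genes restricted to testis and thymus, and Psmc3ip, a meiotic recombination factor that only shares the name, completed the list.

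C57BL/6 mice (the substrain C57BL/6J in the methods of the study) on a normal diet gave the hepatocytes, which were obtained by perfusing the liver with collagenase, and scRNA-Seq was performed on 1 undamaged library (0 h) and 1 library taken 48 h after PHx (PHx48h). In PHx a large part of the liver is cut away and the remnant regrows. No genetic change or drug was named for either group, and the labels gave an age of 10 to 12 weeks at surgery, which the methods of the study put slightly lower. Each library came from a single cell preparation of a single animal, as the methods of the study describe. The animal, the preparation and the library therefore cannot be told apart from the time after PHx, and no test between the groups was possible.

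The proteasome is the protease that degrades most ubiquitin-tagged proteins of the cell. Its barrel-shaped core is built of alpha rings, which gate the entrance, and beta rings, which carry the catalytic sites. The regulatory particle has a base of ATPases, which unfold substrates, and a lid, which removes ubiquitin. After interferon exposure, and constitutively in many immune cells, the catalytic subunits Psmb5, Psmb6 and Psmb7 are replaced by Psmb8, Psmb9 and Psmb10, which shift the cut peptides toward those presented by MHC class I molecules. In cells with impaired proteasomes the transcription factor Nfe2l1 is known to raise the transcription of subunit genes together.

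A total of 3 sets of barcodes were compared, because the libraries differed in composition. Transcripts were counted as unique molecular identifiers (UMIs), which mark each captured molecule. Barcodes with above 30% mitochondrial UMIs numbered 3842 at 0 h and 740 at 48 h, and those with under 2% numbered 52289 and 508. A barcode was called non-hepatocyte when at least 3 markers of a class had a UMI and the class was at least 5 times its level in the low-mitochondrial barcodes of the same library, a rule set after the data were seen. The call was made for 803 barcodes at 0 h and 144 at 48 h, which were kept out of the other sets. The libraries held 59202 and 1586 barcodes with 96118593 and 18198719 UMIs, they shared 148 barcode sequences, and the shallowest barcode had 1183 UMIs at 0 h and 4578 at 48 h. Median non-mitochondrial UMIs per barcode were 1212.5 and 4243.5 above 30% mitochondrial, 1412 and 5271.5 under 2%, and 2195 and 6187 in the non-hepatocyte set. The hepatocyte markers, Alb and 9 others, summed to 100500 and 98610 CPM (UMI counts of the summed set scaled to 1000000 non-mitochondrial UMIs) above 30% mitochondrial, to 84220 and 63410 under 2%, and still to 53250 and 43880 in the non-hepatocyte set, so that hepatocyte transcripts were present in all sets. The sets chosen by mitochondrial share are called hepatocyte sets below for these markers, and whether barcodes under 2% mitochondrial held cells or free transcripts was not tested.

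Levels are given in CPM of the summed set throughout, and intervals are 95% intervals that cover counting error only. Summed over all members, the level was higher at 48 h in every set. Above 30% mitochondrial it was 2064 CPM at 0 h and 5244 at 48 h, a ratio of 2.54 (interval 2.49 to 2.60). Under 2% mitochondrial it was 2899 and 7599, a ratio of 2.62 (2.59 to 2.66). The non-hepatocyte barcodes had the smallest ratio, with 3451 at 0 h and 6396 at 48 h (1.85, 1.79 to 1.92). Proteasome transcripts thus went from 0.206% to 0.524% of the non-mitochondrial UMIs above 30% mitochondrial and from 0.290% to 0.760% under 2%.

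The order of the sets differed between the libraries. At 0 h the non-hepatocyte level was 1.67 times that of barcodes above 30% mitochondrial (1.62 to 1.72) and 1.19 times that of barcodes under 2% (1.16 to 1.22). At 48 h the former ratio was 1.22 (1.19 to 1.25), and the latter was 0.842 (0.820 to 0.864), so that the barcodes under 2% mitochondrial ranked first. Barcodes above 30% mitochondrial stood below those under 2% by a similar factor in both libraries, 0.712 at 0 h (0.699 to 0.725) and 0.690 at 48 h (0.678 to 0.703).

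Individual members were counted when the mean of both libraries reached 10 CPM, which 46 members did above 30% mitochondrial, 46 under 2% and 47 in the non-hepatocyte set. Above 30% mitochondrial, 43 of the 46 were at least 1.5-fold higher at 48 h and 0 were at least 1.5-fold lower, where 48.3% of the 6695 genes that passed the same filter were higher and 11.8% lower. Among the 43, Psmd5, Psmd10 and Psmg4 were below 10 CPM at 0 h and passed the filter through their 48 h level. The median log2 ratio of 48 h over 0 h was 1.38 for the members and 0.55 for all genes. Because the whole distribution was shifted, the members were also counted against the median gene: 44 of 46 lay above it and 31 were at least 1.5-fold above it, against 25.9% of all genes.

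Under 2% mitochondrial, the median was 1.27 for the members and 0.08 for all genes. At least 1.5-fold higher were 38 of 46 members and 36.4% of 5690 genes, and at least 1.5-fold lower were 3 members and 31.9% of genes. Of the members, 36 were at least 1.5-fold above the median gene, with 34.4% of all genes. In the non-hepatocyte barcodes the median was 0.85 for the members and 0.16 for all 8757 genes, 33 of 47 members were higher against 29.7%, 0 were lower against 19.2%, and 26 were at least 1.5-fold above the median gene against 24.3%.

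Of the 46 members that passed in every set, 31 were at least 1.5-fold higher at 48 h in each of them, including all 7 alpha genes and all 7 constitutive beta genes. The share of all genes higher in every set was not counted. The counting interval lay above no change for 45 members above 30% mitochondrial, 41 under 2% and 36 in the non-hepatocyte set. The shares of all genes with such intervals were not counted either, so that these counts describe the members only. The interval lay below no change for Psmd2, Psmd3 and Psme4 under 2% and for Psme4 in the non-hepatocyte set, and for no member above 30% mitochondrial.

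**Figure D1:**
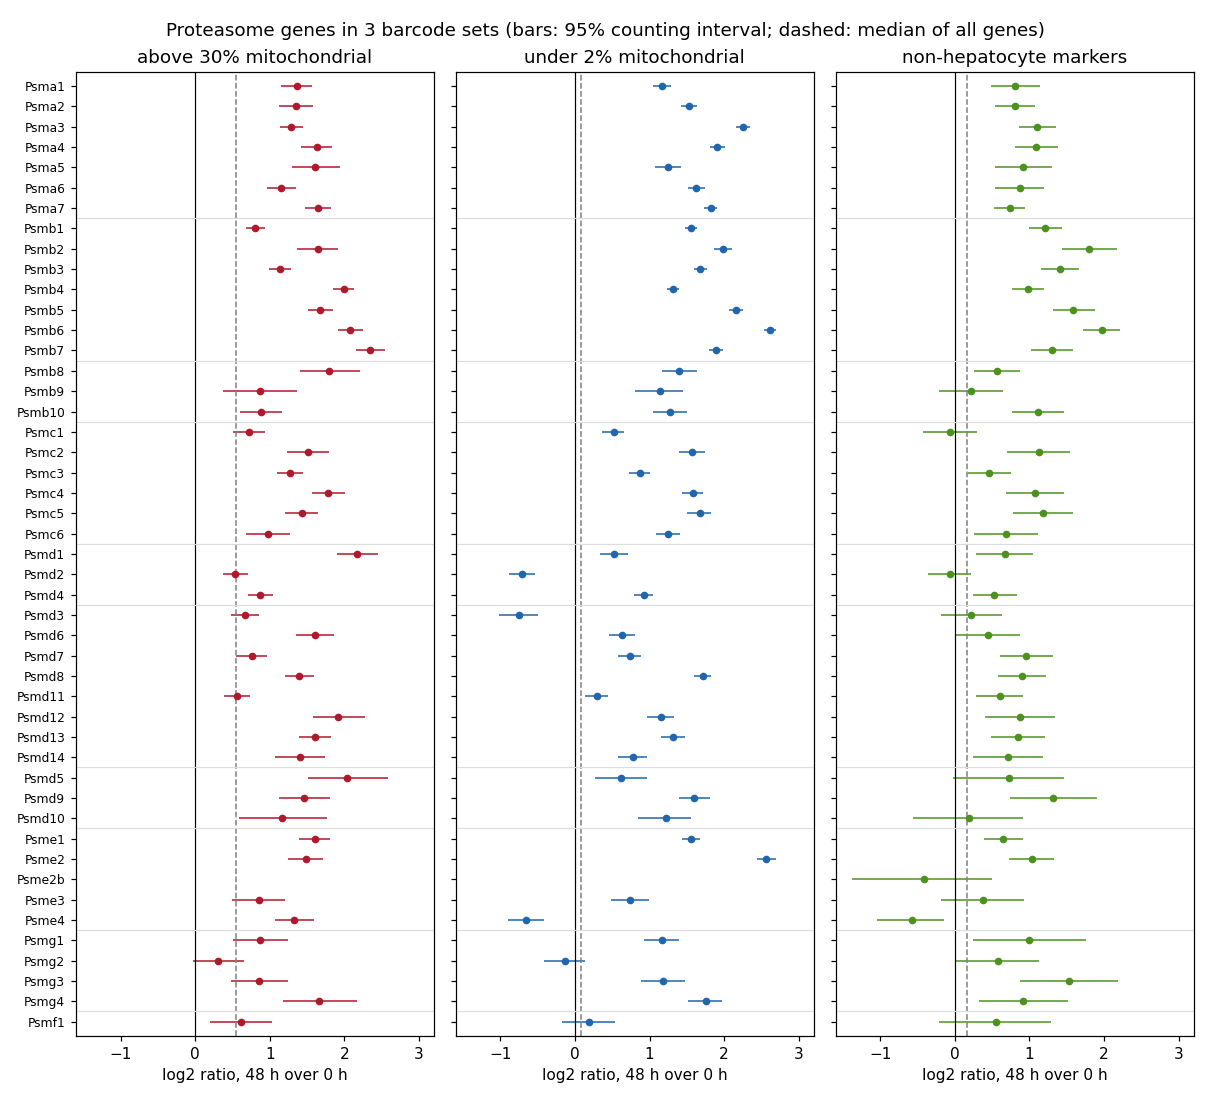
Log2 ratio of 48 h over 0 h for each member that passed the level filter, in 3 barcode sets, with 95% counting intervals as bars, the median of all genes as a dashed line and grey lines between functional groups. Above 30% mitochondrial all points lie right of 0, and under 2% Psmd2, Psmd3, Psme4 and Psmg2 lie left of it.

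The core rings rose in all sets, and the constitutive beta ring had the largest ratio of the groups that passed the filter. The groups differed in transcript length, and its part in their order was not tested. The alpha ring rose from 371 to 989 CPM above 30% mitochondrial (ratio 2.67, 2.53 to 2.81), from 563 to 1867 under 2% (3.32, 3.23 to 3.41) and from 758 to 1409 in the non-hepatocyte set (1.86, 1.73 to 2.00). All 7 alpha genes passed 1.5-fold in each set, and their log2 ratios were narrowly spread above 30% mitochondrial, from 1.15 for Psma6 to 1.64. Psma3 stood out under 2%, where it went from 82.9 to 395 CPM, a log2 ratio of 2.25 (2.16 to 2.34), and it was at 94.7 and 231 above 30% mitochondrial, a log2 ratio of 1.28.

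The constitutive beta ring had ratios of 3.05 (2.92 to 3.18) above 30% mitochondrial, 3.61 (3.53 to 3.70) under 2% and 2.67 (2.50 to 2.86) in the non-hepatocyte set, and again all 7 genes passed 1.5-fold in each. Psmb6 (chr11:70525367-70527858, plus strand, GRCm38 as in all positions here), the caspase-like catalytic subunit, was among the 5 highest members in every set. It went from 67.8 to 287 CPM above 30% mitochondrial (log2 ratio 2.08, 1.92 to 2.25), from 91.1 to 560 under 2% (2.62, 2.54 to 2.70) and from 96.9 to 379 in the non-hepatocyte set (1.97, 1.72 to 2.22). Psmb7 (chr2:38588036-38644087, minus strand), the trypsin-like subunit, had the highest log2 ratio above 30% mitochondrial, 2.35 (2.16 to 2.54), from 49.4 to 252 CPM. It was lower in the other sets, at 1.89 under 2% and 1.30 in the non-hepatocyte set.

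Psmb5, the chymotrypsin-like subunit that is the main target of proteasome inhibitor drugs, went from 68.1 to 218 CPM above 30% mitochondrial, from 89.7 to 401 under 2% and from 83.4 to 252 in the non-hepatocyte set, with log2 ratios of 1.68, 2.16 and 1.59. Among the non-catalytic beta subunits, Psmb4 was at 91.7 and 364 CPM above 30% mitochondrial (log2 ratio 1.99, 1.85 to 2.13) but had the lowest beta ratio under 2% (1.32) and in the non-hepatocyte set (0.98). Psmb2 showed 1.64, 1.98 (1.86 to 2.10) and 1.80 (1.44 to 2.18), and Psmb3 1.14, 1.68 and 1.41 (1.15 to 1.67). Psmb1 had the lowest beta value above 30% mitochondrial, 0.80, with 154 and 268 CPM.

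The immunoproteasome subunits were also higher at 48 h in barcodes of the hepatocyte sets, though by less than the beta ring as a whole. Their summed level was 52.4 and 117 CPM above 30% mitochondrial (ratio 2.23, 1.93 to 2.57), 57.3 and 140 under 2% (2.45, 2.21 to 2.71) and 220 and 349 in the non-hepatocyte set (1.59, 1.38 to 1.82). Psmb8, which replaces Psmb5, went from 12.4 to 43.2 CPM above 30% mitochondrial, a log2 ratio of 1.80 (1.40 to 2.21). Psmb9, which replaces Psmb6, went from 10.1 to 18.5 there, with 58 and 89 UMIs and a log2 ratio of 0.87 (0.37 to 1.37). Psmb10, which replaces Psmb7, went from 29.9 to 55.0, with a log2 ratio of 0.88 (0.60 to 1.17). In the non-hepatocyte set Psmb10 was the only gene of this group past 1.5-fold, at 61.4 and 133 CPM. Psmb8 was there at 97.4 and 145 (log2 ratio 0.57) and Psmb9 at 61.4 and 71.5 (0.22, -0.21 to 0.64, a sign that changed when mitochondrial UMIs were included in the scaling).

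The balance between the subunit types was expressed as the share of Psmb8, Psmb9 and Psmb10 in the UMIs of all 6 catalytic genes, without correction for transcript length. This share was lower at 48 h in every set. It went from 22.0% (exact binomial interval 19.9 to 24.3) to 13.3% (12.3 to 14.4) above 30% mitochondrial, from 17.2% (16.7 to 17.7) to 9.64% (8.79 to 10.6) under 2%, and from 45.0% (41.9 to 48.2) to 29.1% (26.7 to 31.7) in the non-hepatocyte set. The intervals of the time points did not overlap in these sets. Since the immunoproteasome genes themselves were higher or differed little, the lower share came with a larger increase of the constitutive genes. The transcripts of Psmb5, Psmb6 and Psmb7 (760.5, 798 and 1160 bases) were shorter than those of Psmb8, Psmb9 and Psmb10 (1628, 1352 and 1311). Among all genes, those under 1000 bases had higher median log2 ratios than those of 1000 to 2000 bases. The medians were 1.28 and 0.70 above 30% mitochondrial, 1.41 and 0.58 under 2%, and 0.86 and 0.33 in the non-hepatocyte set. The part of transcript length in the share was not tested.

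**Figure D2:**
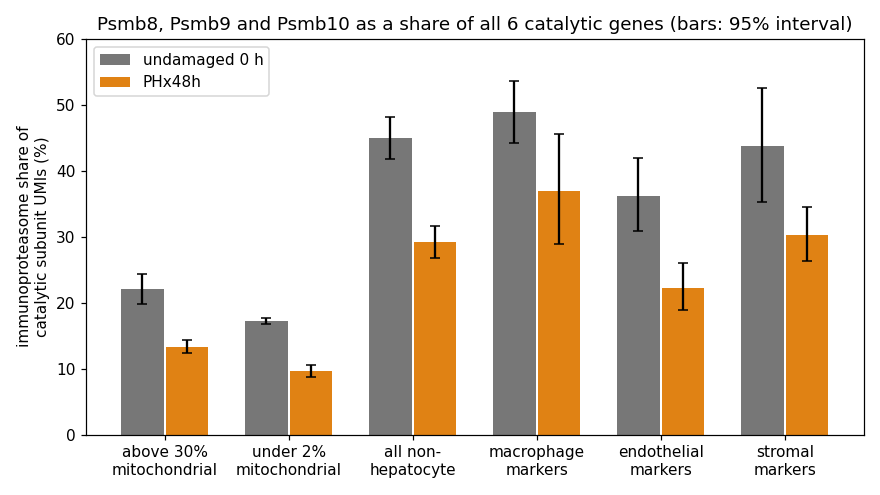
Share of Psmb8, Psmb9 and Psmb10 in the UMIs of the 6 catalytic genes (percent, axis from 0) at 0 h and 48 h, in the 3 barcode sets and in 3 marker-defined classes of the non-hepatocyte set, with 95% binomial intervals. The 48 h bar is the lower of each pair, and all non-hepatocyte bars at 48 h lie above those of the hepatocyte sets.

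The pairs of induced and constitutive subunits did not move alike. The share of Psmb9 in Psmb9 plus Psmb6 was lower at 48 h in every set, 13.0% and 6.05% above 30% mitochondrial, 12.6% and 4.88% under 2%, and 38.8% and 15.9% in the non-hepatocyte set. The share of Psmb10 in Psmb10 plus Psmb7 went from 37.7% to 17.9% above 30% mitochondrial and from 20.3% to 14.3% under 2%, while in the non-hepatocyte set the values of 40.9% (35.3 to 46.6) and 37.8% (33.0 to 42.8) had overlapping intervals. The share of Psmb8 in Psmb8 plus Psmb5 was 15.4% (12.2 to 19.0) and 16.5% (14.5 to 18.7) above 30% mitochondrial, again with overlapping intervals, but it went from 18.2% to 11.6% under 2% and from 53.9% to 36.5% in the non-hepatocyte set. Whether the pairs differed from each other was not tested.

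Genes of interferon response and antigen presentation did not share the increase of the proteasome. Of 16 listed genes, 10 passed the filter above 30% mitochondrial, with a median log2 ratio of -0.09. Of these 2 were higher and 3 lower, beside 48.3% and 11.8% of all genes. Under 2%, 1 of 9 was higher and 8 were lower, beside 36.4% and 31.9% of all genes, with a median of -1.54. In the non-hepatocyte set 2 of 15 were higher and 6 lower, beside 29.7% and 19.2% of all genes, with a median of -0.31. H2-K1, the heavy chain of an MHC class I molecule, went from 3768 to 1150 CPM above 30% mitochondrial, from 3731 to 438 under 2% and from 3213 to 1122 in the non-hepatocyte set. B2m, the light chain of these molecules, had log2 ratios of -1.10, -1.15 and -0.89. Tap1, a subunit of the peptide transporter, was at 21.8 and 22.2 CPM above 30% mitochondrial.

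Barcodes with several markers of other cell types had been moved out of the hepatocyte sets by the rule, so that the low marker levels left there follow from the selection. The 10 macrophage markers still summed to 19.2 and 15.0 CPM above 30% mitochondrial and to 22.7 and 29.7 under 2%, against 5255 and 1818 in the non-hepatocyte set. The 9 T or NK markers in the files had 4 and 0 UMIs above 30% mitochondrial and 213 and 0 under 2%, and the 7 dendritic cell markers had 0 and 0, and 20 and 0. The part of other cell types in the Psmb8, Psmb9 and Psmb10 counts was not tested.

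Upstream sequences are shown for the interchangeable catalytic pairs Psmb5 with Psmb8 and Psmb6 with Psmb9, whose balance is described above. They are the 250 bases before the RefSeq start in GRCm38.p6, 5′ to 3′ on the strand of the gene, with the match to 1 searched motif in capitals. In Psmb5 (chr14:54617996-54618245, minus strand) and Psmb6 (chr11:70525107-70525356, plus strand) the capitals mark TGACNNNGC, the core of the antioxidant response element bound by Nfe2l1 and Nfe2l2. In Psmb8 (chr17:34197945-34198194, plus strand) they mark TTCNNNGAA, a core of STAT sites, and in Psmb9 (chr17:34187331-34187580, minus strand) the reverse complement of CCAAT, the site of NF-Y. By the gene bounds in GENCODE M21, Psmb8 begins at 34197721 and Psmb9, on the minus strand, at 34187764. Both of their windows therefore lie inside the annotated genes, whose 5′ ends are further upstream than the RefSeq starts used here. Psmb8 and Psmb9 lie on chromosome 17 on opposite strands, with Tap1 between them.
Psmb5: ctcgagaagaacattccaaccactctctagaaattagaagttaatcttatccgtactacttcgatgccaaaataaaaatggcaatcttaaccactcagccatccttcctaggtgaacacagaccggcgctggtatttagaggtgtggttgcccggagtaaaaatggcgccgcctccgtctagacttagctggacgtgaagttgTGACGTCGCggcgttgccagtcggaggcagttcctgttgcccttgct
Psmb6: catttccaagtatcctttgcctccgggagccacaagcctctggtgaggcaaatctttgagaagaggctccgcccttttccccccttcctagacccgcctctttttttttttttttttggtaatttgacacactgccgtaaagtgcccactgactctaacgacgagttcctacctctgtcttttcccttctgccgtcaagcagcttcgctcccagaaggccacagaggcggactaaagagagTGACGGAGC
Psmb8: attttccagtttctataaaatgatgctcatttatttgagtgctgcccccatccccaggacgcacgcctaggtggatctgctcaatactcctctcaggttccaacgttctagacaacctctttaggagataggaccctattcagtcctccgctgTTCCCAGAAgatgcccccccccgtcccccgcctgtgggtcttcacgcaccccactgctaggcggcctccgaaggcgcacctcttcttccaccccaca
Psmb9: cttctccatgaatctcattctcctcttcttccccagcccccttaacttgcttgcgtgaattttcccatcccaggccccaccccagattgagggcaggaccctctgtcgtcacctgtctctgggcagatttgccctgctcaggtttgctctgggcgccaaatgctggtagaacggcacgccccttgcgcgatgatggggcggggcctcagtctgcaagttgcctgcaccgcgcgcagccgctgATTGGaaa

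The motifs were searched on both strands in the upstream windows of the 42 members that matched the RefSeq table and of all 27025 genes in it. TGACNNNGC was found in 5 members, Psmb5, Psmb6, Psmc6, Psmd12 and Psmd9, which is 11.9% of members against 11.5% of all genes. CCAAT was found in 15 members (35.7%, against 37.5%), GAAANNGAA, the core of interferon response elements, in 3 members (7.14%, against 8.18%), and TTCNNNGAA in Psmb8 and Psmg1 (4.76%, against 8.13%). None of these shares was above that of all genes by more than 1 percentage point. Counted from the start site, the match began at position -9 in Psmb6 and at -47 in Psmb5. Psma8, Psmb1, Psmb2, Psmb7, Psmc3, Psmd3, Psmd7 and Psmg2 were not matched.

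The regulatory particle showed smaller and more uneven ratios than the core. Transcript lengths differed too: the regulatory genes ranged from 1316 bases (Psmc5) to 3112 (Psmd1). In the core, Psma6, Psmb2, Psmb3, Psmb5 and Psmb6 were under 1000 bases, while Psma2 had 2911. The part of length in this difference was not tested. The 6 ATPases summed to 262 and 636 CPM above 30% mitochondrial (ratio 2.43, 2.28 to 2.59), 337 and 751 under 2% (2.23, 2.13 to 2.32) and 403 and 645 in the non-hepatocyte set (1.60, 1.45 to 1.77). At least 1.5-fold higher were 6 of the 6 above 30% mitochondrial, 5 under 2% and 4 in the non-hepatocyte set. Psmc4 had the highest log2 ratio of the ATPases above 30% mitochondrial (1.78) and Psmc1 the lowest in every set, at 0.72, 0.52 and -0.06 (-0.43 to 0.30).

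The scaffold genes of the base differed between the sets. Psmd1 (chr1:86064387-86139151, plus strand), a large scaffold subunit, was at 24.6 and 111 CPM above 30% mitochondrial, a log2 ratio of 2.17 (1.90 to 2.45), and at 54.3 and 78.1 under 2%, a log2 ratio of 0.52 (0.33 to 0.71). Psmd2 (chr16:20651652-20663414, plus strand), the other large scaffold, was at 89.1 and 130 above 30% mitochondrial (0.54, 0.37 to 0.71), at 156 and 95.5 under 2% (-0.71, -0.88 to -0.54) and at 145 and 138 in the non-hepatocyte set (-0.06, -0.36 to 0.22). With trimmed-mean (TMM) scaling of the libraries the value of Psmd2 above 30% mitochondrial was -0.01. Psmd4, a ubiquitin receptor, had log2 ratios of 0.87, 0.92 and 0.53. Reads of Psmd1 may overlap those of small same-strand genes annotated within it, as may those of Psma2, Psmb5, Psmb7, Psmc5, Psmd12, Psmd13, Psmd14, Psme2b and Psmg3.

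The 8 lid genes had summed ratios of 2.17 (2.06 to 2.29), 1.77 (1.70 to 1.84) and 1.64 in the order above 30% mitochondrial, under 2% and non-hepatocyte. Above 30% mitochondrial 7 of 8 passed 1.5-fold, with Psmd12 the highest (1.92) and Psmd11, a subunit that clamps lid and core together, the lowest (0.56, 0.38 to 0.74). Under 2%, 6 were higher and Psmd3 (chr11:98682554-98695979, plus strand) was lower, at 72.3 and 42.8 CPM (-0.75, -1.02 to -0.50). Psmd3 went the other way above 30% mitochondrial, with 397 and 530 UMIs (0.67, 0.48 to 0.86). Psmd14, the subunit that cuts ubiquitin from substrates, had log2 ratios of 1.40, 0.78 and 0.71. Psmd8 had the highest log2 ratio of the lid genes under 2%, 1.71, and was at 1.39 above 30% mitochondrial.

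The assembly factors were counted at low levels. Those of the base, Psmd5, Psmd9 and Psmd10, had summed ratios of 2.93 (2.47 to 3.50), 2.39 (2.14 to 2.67) and 1.78 (1.37 to 2.31). Psmd5 had 39 and 134 UMIs above 30% mitochondrial, 6.81 and 27.8 CPM, a log2 ratio of 2.03 (1.51 to 2.58). It passed the filter there through its 48 h level, and its log2 ratio was 0.62 under 2%. Psmd10, also known as the oncoprotein gankyrin, had 1.17, 1.22 and 0.19 (-0.56 to 0.91), the last of which changed sign with TMM scaling and with mitochondrial UMIs included. Among the core assembly factors, which chaperone the alpha ring in pairs, Psmg4 had 1.66, 1.75 and 0.92 and its partner Psmg3 had 0.85, 1.18 and 1.53 (0.88 to 2.19). Psmg1 had 0.87 and 1.16 in the hepatocyte sets. Its partner Psmg2 was the lowest member above 30% mitochondrial, at 25.0 and 30.9 CPM (0.31, -0.03 to 0.65), a value that turned negative with TMM scaling, and it was at 39.0 and 35.6 under 2% (-0.13, -0.42 to 0.14).

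The activators split by type. Psme1 and Psme2 form the interferon-inducible ring that opens the core and are commonly found with the immunoproteasome. Psme1 was at 45.4 and 137 CPM above 30% mitochondrial, 68.6 and 201 under 2%, and 133 and 208 in the non-hepatocyte set, with log2 ratios of 1.60, 1.55 and 0.65. Psme2 was at 38.4 and 107, at 34.8 and 206, and at 84.4 and 172, with log2 ratios of 1.48, 2.56 (2.44 to 2.69) and 1.03, the second highest of all members under 2%. Reads of Psme2 may be shared with its near copy Psme2b, which had 9 and 18 UMIs above 30% mitochondrial, 129 and 26 under 2%, and 36 and 15 in the non-hepatocyte set, so that both values are uncertain.

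Psme3, the nuclear activator, had log2 ratios of 0.85, 0.74 and 0.38 (-0.19 to 0.93). Psme4 (chr11:30771726-30880361, plus strand), a large single-chain activator, was at 32.5 and 81.6 CPM above 30% mitochondrial (1.33, 1.07 to 1.59), at 77.4 and 49.0 under 2% (-0.66, -0.90 to -0.42) and at 78.4 and 52.5 in the non-hepatocyte set (-0.58, -1.04 to -0.14). It was thus higher in the first set and lower in the others. The inhibitor Psmf1 was at 15.2 and 23.2 CPM above 30% mitochondrial (0.61, 0.20 to 1.03), at 19.5 and 22.2 under 2% (0.19, -0.18 to 0.54), a value that changed sign with TMM scaling and without the 20 most abundant genes, and it had 36 and 29 UMIs in the non-hepatocyte set (0.55, -0.21 to 1.29).

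The remaining members were at or near 0. Psmb11 had 0 UMIs in both libraries in all sets. Psma8 had 0 and 6 UMIs above 30% mitochondrial, 7 and 3 under 2%, and 4 and 4 in the non-hepatocyte set, and no fold is given. Psmc3ip had 4 and 26 UMIs above 30% mitochondrial, 14 and 26 under 2% and 2 and 12 in the non-hepatocyte set, below the level filter throughout. Its ratio under 2% was 47.4 (23.9 to 98.3).

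The ratios of the members differed with the length of their transcripts. Under 2% mitochondrial the Spearman correlation across genes between length and log2 ratio was -0.59 for 46 members and -0.50 for 5687 genes, which share the libraries and are not independent. It was -0.24 and -0.21 above 30% mitochondrial, and -0.44 and -0.26 in the non-hepatocyte set. The median length was 1384 bases for the members under 2% and 2259 bases for all genes. The members were therefore also set beside genes of like length.

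Under 2% mitochondrial, the median log2 ratio of 10 members shorter than 1000 bases was 1.72 and that of all genes of this length 1.41. From 1000 to 2000 bases the medians were 1.28 for 25 members and 0.58 for all genes, and from 2000 to 4000 bases 0.52 for 9 members and -0.25 for all genes. Psmd2 and Psmd3 fell in the last of these ranges, at 2961 and 2148 bases, and Psme4 had the longest transcript of the members, 6491 bases. Among genes of its range, over 4000 bases, the median was -0.70. Above 30% mitochondrial the corresponding medians were 1.54 and 1.28, 1.40 and 0.70, and 0.85 and 0.47, and in the non-hepatocyte set they were 1.03 and 0.86, 0.88 and 0.33, and 0.60 and 0.07. Above the median of their length range lay 41 of 46 members above 30% mitochondrial, 40 of 46 under 2% and 40 of 47 in the non-hepatocyte set. The part of transcript length in the ratios was not tested.

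**Figure D3:**
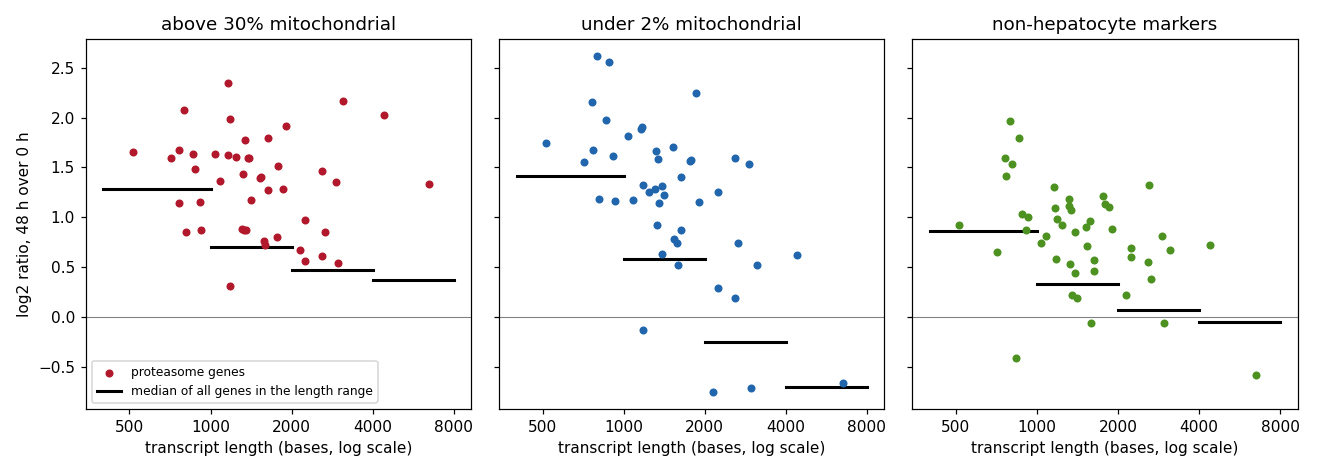
Log2 ratio of 48 h over 0 h against median transcript length (bases, log scale) for the members (points) and the median of all genes in each length range (black lines), in 3 barcode sets. Under 2% mitochondrial the line falls from 1.41 for the shortest genes to -0.70 for the longest, and most members lie above it.

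Within the non-hepatocyte set the composition differed between the libraries. At 0 h it held 324 barcodes with macrophage markers, 291 endothelial, 133 stromal, 32 T or NK, 10 B, 7 dendritic and 6 neutrophil. At 48 h it held 57 endothelial, 56 stromal, 24 macrophage, 3 T or NK, 3 dendritic and 1 cholangiocyte. Alb was at 27810 to 31360 CPM in the macrophage, endothelial and stromal classes at 0 h and at 12150 to 28710 at 48 h, so that the levels of these classes include hepatocyte transcripts, and no doublets were removed.

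The summed member level was higher at 48 h in each of the 3 classes with over 20 barcodes at both time points. Stromal barcodes had the largest ratio, 2.25 (2.09 to 2.42), from 3210 to 7226 CPM. Endothelial barcodes went from 3101 to 5967 (1.92, 1.82 to 2.03) and macrophage barcodes from 3764 to 5295 (1.41, 1.30 to 1.52). The constitutive catalytic genes had ratios of 3.97 (3.09 to 5.16), 2.98 (2.52 to 3.55) and 2.24 (1.73 to 2.88) in the same order. The immunoproteasome genes had 2.22 (1.63 to 3.05), 1.51 (1.16 to 1.96) and 1.37 (0.991 to 1.87).

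The immunoproteasome share was 48.9% (44.1 to 53.6) at 0 h and 37.0% (28.9 to 45.6) at 48 h in macrophage barcodes, where the intervals overlapped. It was 36.2% (30.9 to 41.9) and 22.3% (18.9 to 26.0) in endothelial barcodes and 43.7% (35.2 to 52.5) and 30.2% (26.3 to 34.4) in stromal barcodes. T or NK barcodes at 0 h had 32 immunoproteasome and 24 constitutive UMIs, a share of 57.1% (43.2 to 70.3). Within each of the 3 larger classes the pooled share was thus lower at 48 h. Of the single pairs, Psmb10 in Psmb10 plus Psmb7 went the other way in stromal barcodes, from 36.2% to 45.2%, with overlapping intervals. Each other pair was lower at 48 h in these classes, but the intervals of Psmb10 overlapped in macrophage and endothelial barcodes as well.

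The member level also differed with the mitochondrial share of a barcode in each library. Over all barcodes at 48 h it was 7977 CPM under 0.5% mitochondrial, 7015 from 0.5 to 2%, 6024 from 5 to 10%, 5436 from 30 to 50% and 5091 from 50 to 70%. At 0 h it was 2929 under 0.5%, 3205 from 2 to 5%, 2533 from 10 to 30% and 1970 from 50 to 70%. The 18 barcodes over 70% at 0 h had 29 member UMIs, and their value of 3953 (2647 to 5677) is imprecise. The 48 h level was above the 0 h level in each of the 8 ranges, with intervals that overlapped in that range alone. Terciles by non-mitochondrial UMIs were taken over all barcodes above 30% mitochondrial, 3870 at 0 h and 765 at 48 h, with non-hepatocyte calls included. From shallow to deep, they had 2007, 2157 and 2037 CPM at 0 h and 5443, 5247 and 5220 at 48 h.

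**Figure D4:**
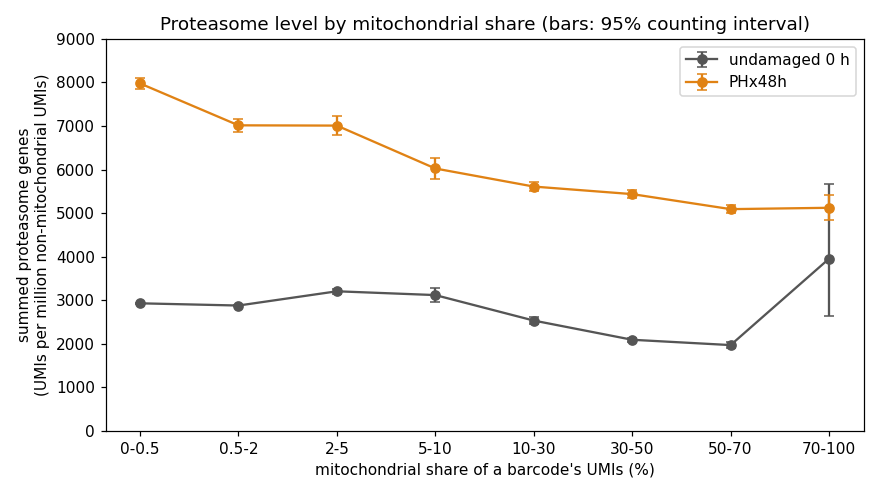
Summed member level (CPM of non-mitochondrial UMIs, axis from 0) against the mitochondrial share of a barcode's UMIs in 8 ranges, at 0 h and 48 h, with 95% counting intervals. The 48 h points fall from 7977 to 5091 at 50 to 70% mitochondrial and stay above the 0 h points.

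Among single barcodes, thinned to 1000 non-mitochondrial UMIs each, the median number of member UMIs was 2 at 0 h and 5 at 48 h above 30% mitochondrial, 3 and 7 under 2%, and 3 and 6 in the non-hepatocyte set. The highest barcode had 11 and 15 above 30% mitochondrial, 14 and 23 under 2%, and 14 and 14 in the non-hepatocyte set. No member UMI was left in 15.4% of the barcodes above 30% mitochondrial at 0 h and in 0.815% at 48 h, and before thinning in 13.3% and 0.0%. The thinning left out 1395 of 3842 barcodes at 0 h and 4 of 740 at 48 h. The variance over the mean, which is 1 for counting error alone, was 1.20 at both time points above 30% mitochondrial, 1.04 and 1.25 under 2%, and 1.26 and 1.16 in the non-hepatocyte set. The range from the 5th to the 95th percentile of barcodes went from 0 to 5 member UMIs at 0 h to 2 to 10 at 48 h above 30% mitochondrial.

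**Figure D5:**
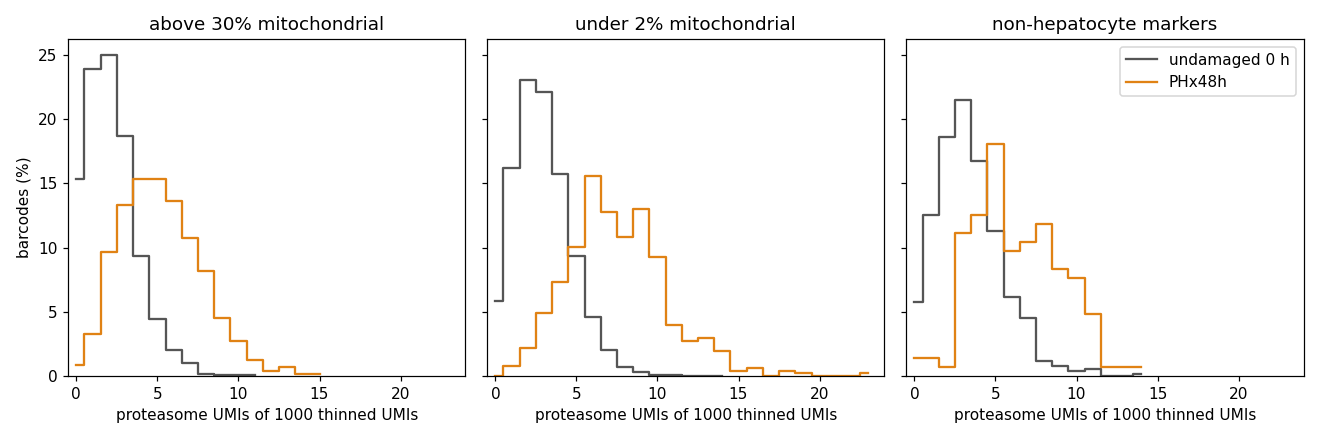
Distribution of member UMIs among 1000 thinned non-mitochondrial UMIs per barcode (percent of barcodes) at 0 h and 48 h, in 3 barcode sets. The medians move from 2 to 5, from 3 to 7 and from 3 to 6.

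Barcodes with an excess of proliferation genes had slightly more proteasome transcripts at 48 h. They were barcodes with more UMIs of 25 cell cycle genes than a Poisson draw at the level of their library's low-mitochondrial barcodes would give. Above 30% mitochondrial at 48 h, 36 such barcodes had 5863 CPM and the other 704 had 5171, a ratio of 1.13 (1.09 to 1.18), with median depths of 11762.5 and 4104.5 UMIs. Under 2% the ratio was 1.16 (1.11 to 1.22), with 8726 and 7500 CPM. The 25 cell cycle genes summed to 22.0 CPM under 2% mitochondrial at 0 h and to 1307 at 48 h. A barcode thus needed a higher level of them for the call at 48 h, and the other 704 may include proliferating ones. The part of proliferation in the difference between the time points was not tested. Immunoproteasome genes had 92.4 CPM in the 36 proliferating barcodes above 30% mitochondrial and 119 in the others. Under 2% they had 174 in 29 proliferating barcodes and 137 in the others. No interval was computed for these values, and neither order was tested. At 0 h the excess was seen in 5 barcodes above 30% mitochondrial, with 37 member UMIs.

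Zonation was examined among barcodes above 30% mitochondrial with at least 20 UMIs of zonal genes, split into terciles by the perivenous share of those UMIs. The periportal, middle and perivenous terciles held 497, 507 and 503 of 3842 barcodes at 0 h. At 48 h they held 230, 229 and 230 of 740. Cuts were taken separately in each library, and the 10 perivenous genes summed to 7828 CPM at 0 h and 3094 at 48 h. The terciles of the libraries may therefore not be the same zones. At 0 h the level was 1700 CPM in the periportal, 2427 in the middle and 3000 in the perivenous tercile, a ratio of 1.76 of perivenous over periportal (1.67 to 1.87). At 48 h the levels were 5076, 5173 and 5650, a ratio of 1.11 (1.08 to 1.15). Core genes had 784 and 1401 CPM in the outer terciles at 0 h and 2564 and 2924 at 48 h, and regulatory particle genes 639 and 1198, then 1789 and 1965. Depth moved with zone, with medians of 2608, 1941 and 1393 non-mitochondrial UMIs at 0 h and 7060, 4920 and 3738 at 48 h. The low-mitochondrial barcodes at 0 h had 13610 CPM of the 10 perivenous genes and 9471 of the 12 periportal genes, where barcodes above 30% had 7828 and 6496. The part of depth and of free transcripts in the zonal values was not tested.

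Other genes of the pathway were taken from a list of 34, of which 30 were in the files. Above 30% mitochondrial 17 of 29 that passed the filter were at least 1.5-fold higher and 0 were lower, beside 48.3% and 11.8% of all genes, with a median log2 ratio of 1.08. Under 2%, 11 of 27 were higher and 6 lower, beside 36.4% and 31.9% of all genes (median -0.16), and in the non-hepatocyte set 10 of 29 were higher and 4 lower, beside 29.7% and 19.2% (median 0.18). The shares of higher genes were near those of all genes in the latter sets. Their median was lower than that of the members in each set.

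Among those that build the particle or bind to it, Pomp, the chaperone that matures the beta ring, was at 89.4 and 258 CPM above 30% mitochondrial, 148 and 582 under 2%, and 188 and 423 in the non-hepatocyte set. Shfm1, a small lid subunit, was at 62.2 and 258, 174 and 496, and 306 and 653. Adrm1, a ubiquitin receptor, had log2 ratios of 1.98, 1.42 and 1.5, and Uchl5, the deubiquitinase that it recruits, 1.75, 1.70 and 1.60. Usp14, a further deubiquitinase that binds the base, had 0.28, -0.35 and 0.14.

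Genes upstream of the proteasome were uneven. Ubb, which encodes ubiquitin, had log2 ratios of 2.50 above 30% mitochondrial, 2.52 under 2% and 1.51 in the non-hepatocyte set. Vcp, the unfoldase that delivers substrates, was at 153 and 513 CPM above 30% mitochondrial and at 333 and 260 under 2%. Nfe2l1, the regulator of subunit genes, was at 46.5 and 36.1 above 30% mitochondrial, 51.3 and 15.7 under 2%, and 136 and 67.9 in the non-hepatocyte set, with log2 ratios of -0.36, -1.71 and -1.01. Ddi2, the protease that activates it, had 0.11, -0.82 and -0.61. Nfe2l2, a related factor of the oxidative stress response, had 1.67, 0.73 and 0.18.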

How the data were processed

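Droplet scRNA-Seq was analysed for 1 undamaged and 1 PHx48h library. The authors ran Cell Ranger, with mm10 named in the submitters' processing notes, and deposited whole-number UMI counts per gene and barcode, without normalization. Their methods name filters on mitochondrial content and doublets without thresholds, and every deposited barcode was used here. The members, gene lists and barcode sets were chosen with earlier results of these data known.

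Mitochondrial UMIs came from 13 genes. Counts were summed per set, scaled to 1000000 non-mitochondrial UMIs (CPM) and given with exact Poisson intervals, and ratios with exact conditional binomial intervals (95%). Genes entered at a mean of 10 CPM or more, and a difference was called at 1.5-fold by its point estimate. With 1 library per group no test was run. Named genes were the 5 highest and lowest members of each set, the catalytic pairs, activators and assembly factors, with others by counts and examples, some of them chosen after their values were seen. Transcript lengths and overlaps came from GENCODE M21, where all 50 members matched, and upstream sequences from RefSeq (GRCm38.p6). Python 3.11.15, scipy 1.17.1 and edgeR 4.0.16 (TMM factors only) were used, and the scripts were tested on simulated data. Intervals cover counting error only.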

Additional observations from a re-analysis of the deposited data

Results flagged for a closer look

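Psmd2, Psmd3 and Psme4 had log2 ratios of opposite sign in barcodes above 30% and under 2% mitochondrial, with both counting intervals excluding no change. The difference between the log2 ratios was 1.25 for Psmd2, 1.42 for Psmd3 and 1.99 for Psme4. Psme4 also differed by 1.91 between barcodes above 30% mitochondrial and the non-hepatocyte set. These differences were not tested, as there was 1 library per group. With TMM scaling the values above 30% mitochondrial became -0.01 (interval -0.18 to 0.16) for Psmd2, 0.12 (-0.07 to 0.31) for Psmd3 and 0.78 (0.52 to 1.04) for Psme4, so that the interval excluded no change for Psme4 alone.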

How the results depend on the processing

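The scaling of the libraries moved the sizes most. Above 30% mitochondrial the median log2 ratio of the members was 1.14 without the 20 most abundant genes, 0.83 with TMM scaling and 1.11 with mitochondrial UMIs included, and under 2% it was 0.97 with TMM, which moved the median of all genes by -0.55 and -0.29. Members at least 1.5-fold higher numbered 27 of 29 above 30% mitochondrial at a minimum of 50 CPM. In the non-hepatocyte set they numbered 20 with mitochondrial UMIs included and 15 at 2-fold. The immunoproteasome share there at 48 h was 32.7% for barcodes of at most 30% mitochondrial. The ratio of perivenous over periportal at 48 h was 1.15 as a mean of barcodes. The cause was not tested. The other 78 alternative values of the main results stayed within counting error or within 1.5-fold of the count, and none changed direction. With TMM scaling, 31, 32 and 26 members were at least 1.5-fold higher, beside 25.8%, 28.8% and 22.4% of all genes, and 0, 3 and 2 were lower. No paired analysis was possible because each group had 1 library, for which reason no library could be left out either. Low counts limit Psmb9, Psmd5, Psmd10 and Psme2b.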
